A study of Homo sapiens with 16 samples.

Results

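Gene expression was compared between LNCaP prostate cancer spheroids transfected with small interfering RNA against MED12 (siMED12) and LNCaP spheroids transfected with a non-targeting control (siCtrl). The comparison used the 6 LNCaP libraries of 16 in the series, chosen by their labels, with 3 siCtrl and 3 siMED12 libraries numbered 1 to 3. The other 10 libraries, 5 of 22Rv1 and 5 of PC3 spheroids with the same treatments, were fitted together with them. They shared in the gene filter, the scaling and the estimate of the spread behind each LNCaP p-value. They also served to test where the LNCaP response differed. In both LNCaP groups 25 pmol of RNA was transfected, the cells were grown as a monolayer for 3 days, and they then spent 4 days as spheroids, so that RNA was taken at 7 days. LNCaP is an established human cell line from a lymph node metastasis. It is androgen-dependent and responds to the androgen receptor antagonist enzalutamide, so that the values describe 1 line and carry no information on other androgen-responsive cells. Nothing in the labels says that libraries of a group came from separate cultures. Except where a replicate block is named, the p-values measure only the spread between libraries within groups, estimated over all 16. With that block, which ties libraries of the same number, they measure the spread of the differences within same-numbered pairs. Transcripts were counted by BRB-seq, a pooled 3′ tag method, and levels are given in CPM, counts scaled to a common library total and corrected for library composition. In bulk samples a lower level per cell cannot be told apart from fewer cells that express the gene.

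MED12 is a subunit of the kinase module of Mediator, the complex that connects transcription factors bound at enhancers with RNA polymerase II. In that module MED12 activates the cyclin-dependent kinase CDK8 or its paralog CDK19 together with cyclin C, and MED13 or MED13L holds the module to the core complex. The kinase module is best known for its part in genes that respond quickly to signals, among them serum response, hypoxia and stress genes. Spheroids are a dense culture in which oxygen and nutrients reach inner cells less readily than in a monolayer, and genes induced by hypoxia are usually expressed in them.

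The 6 libraries held 635562 to 993807 counts. Mitochondrially encoded genes took 10.1%, 8.60% and 8.63% of the counts in siCtrl replicates 1, 2 and 3, and 10.5%, 12.9% and 10.3% in the siMED12 replicates. The siMED12 library of replicate 2 stood apart, with a chi-square of 3.04 and 2.88 per gene against its replicates, where other pairs within a group had 1.60 to 1.99. Adjusted p-values without it accompany each group of called genes. MED12 itself had 6, 9 and 11 counts in the siCtrl libraries and 5, 5 and 9 in the siMED12 libraries, and MED12L had 0 in each. The MED12 level overlapped between the groups (log2 fold change -0.50, SE 0.46, edgeR adjusted p 0.878), so that a knockdown was not detectable in the transcript counts at this depth. Of the rest of the kinase module, CDK19, CCNC, CDK8, MED13 and MED13L had log2 fold changes of 0.093, -0.0095, 0.14, 0.47 and 0.18, overlapped between the groups and did not pass the test. The 23 tested subunits of the rest of Mediator had a median of -0.0057, with none called in either fit. Among 15 luminal prostate markers all 15 were tested, with a summed level of 8868 to 9375 CPM in siCtrl and 6701 to 8094 CPM in siMED12. Summed basal, neuroendocrine, and immune and endothelial markers stood at 5.43 to 22.0, 1.36 to 6.29 and 0 to 1.57 CPM in siCtrl and at 9.92 to 16.6, 1.10 to 8.28 and 1.38 to 5.30 CPM in siMED12. Mesenchymal and fibroblast markers summed to 260.4 to 401 CPM in siCtrl and 274 to 295 CPM in siMED12, and of their 15 genes 6 were tested, none was called and 5 had no counts in the 6 libraries. No counts in the 6 libraries were found for 3 of 9 basal, 6 of 11 neuroendocrine and 6 of 9 immune and endothelial markers. KRT5, CHGA and PTPRC were among these, and the rest of each list had some counts. Of the 3 lists 5, 3 and 0 genes were tested. Genes particular to 22Rv1 or PC3 were those with at least 100 CPM in each siCtrl library of that line and under 2 CPM on average in LNCaP siCtrl. In the LNCaP siMED12 libraries they stood at 0.433% to 1.20% of their level in those lines. Their 0.302% to 1.05% in the LNCaP siCtrl libraries follows from the choice.

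The LNCaP response to siMED12 consisted mostly of lower expression. In edgeR's quasi-likelihood test 44 of 10566 genes passed an adjusted p of 0.05 (0.416% of all tested genes), of which 39 were lower (0.369%) and 5 were higher (0.0473%). At an unadjusted p under 0.05 there were 434 lower and 342 higher genes. In each of the 44 the siMED12 libraries lay entirely on 1 side of the siCtrl libraries. This held for 12.6% of all tested genes (below for 6.75% and above for 5.89%). The sign is then the same in each of the 3 number-matched pairs by necessity, so that the pairs add nothing here. Libraries of the same number deviated together from their group means, and a fit with the replicate number as a block called 117 genes (1.11%), 89 lower (0.842%) and 28 higher (0.265%), with the 44 among them. The response was uneven over the libraries. The 39 lower genes had median log2 differences of -0.62, -1.56 and -1.0 in pairs 1, 2 and 3, and 27 of them had their lowest level in siMED12 replicate 2, where 33.7% of all tested genes did. The 5 higher genes all peaked in the same library. Without siMED12 replicate 2 the count of called genes was 12 (ATF3, BASP1, BHLHE40, DNAJB1, ELF3, GPI, HSPA1B, IGFBP3, IRF2BP2, JUND, PFKFB4 and PLOD1), without siCtrl replicate 2 it was 14, and without siCtrl replicate 3 it was 13.

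**Figure D1:**
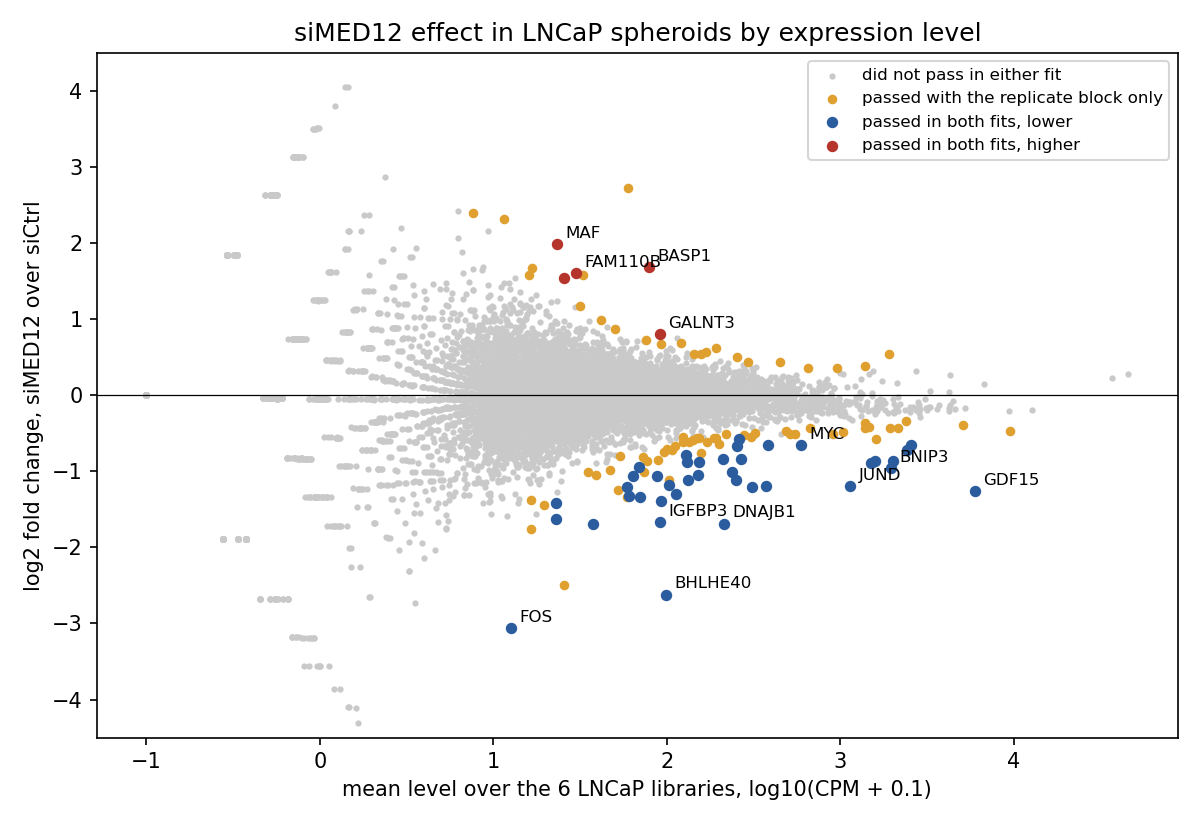
The log2 fold change of each tested gene between siMED12 and siCtrl (vertical axis) is plotted against its mean level over the 6 LNCaP libraries on a log10 scale (horizontal axis). Blue and red points are the 39 lower and 5 higher genes that passed the edgeR test in both fits, orange points are the 73 that passed with the replicate block only, and 2 genes lie outside the plotted range.

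The functions of 38 of the 39 lower genes were grouped after their values were seen. There were 8 genes of glucose uptake and glycolysis, 8 further genes known to be induced by hypoxia, 7 immediate early and stress factors, 2 chaperones, 6 regulators of growth and lineage, 3 secreted proteins and 4 others. The median log2 fold change of the groups ran from -0.87 for glycolysis to -1.40 for the chaperones, beside a median of -0.0038 over all tested genes. The 2 chaperones had medians of -1.22, -1.54 and -1.41 in pairs 1 to 3, whereas the glycolysis genes were lowest in pair 2 (-0.49, -1.76 and -0.83 in pairs 1 to 3).

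**Figure D2:**
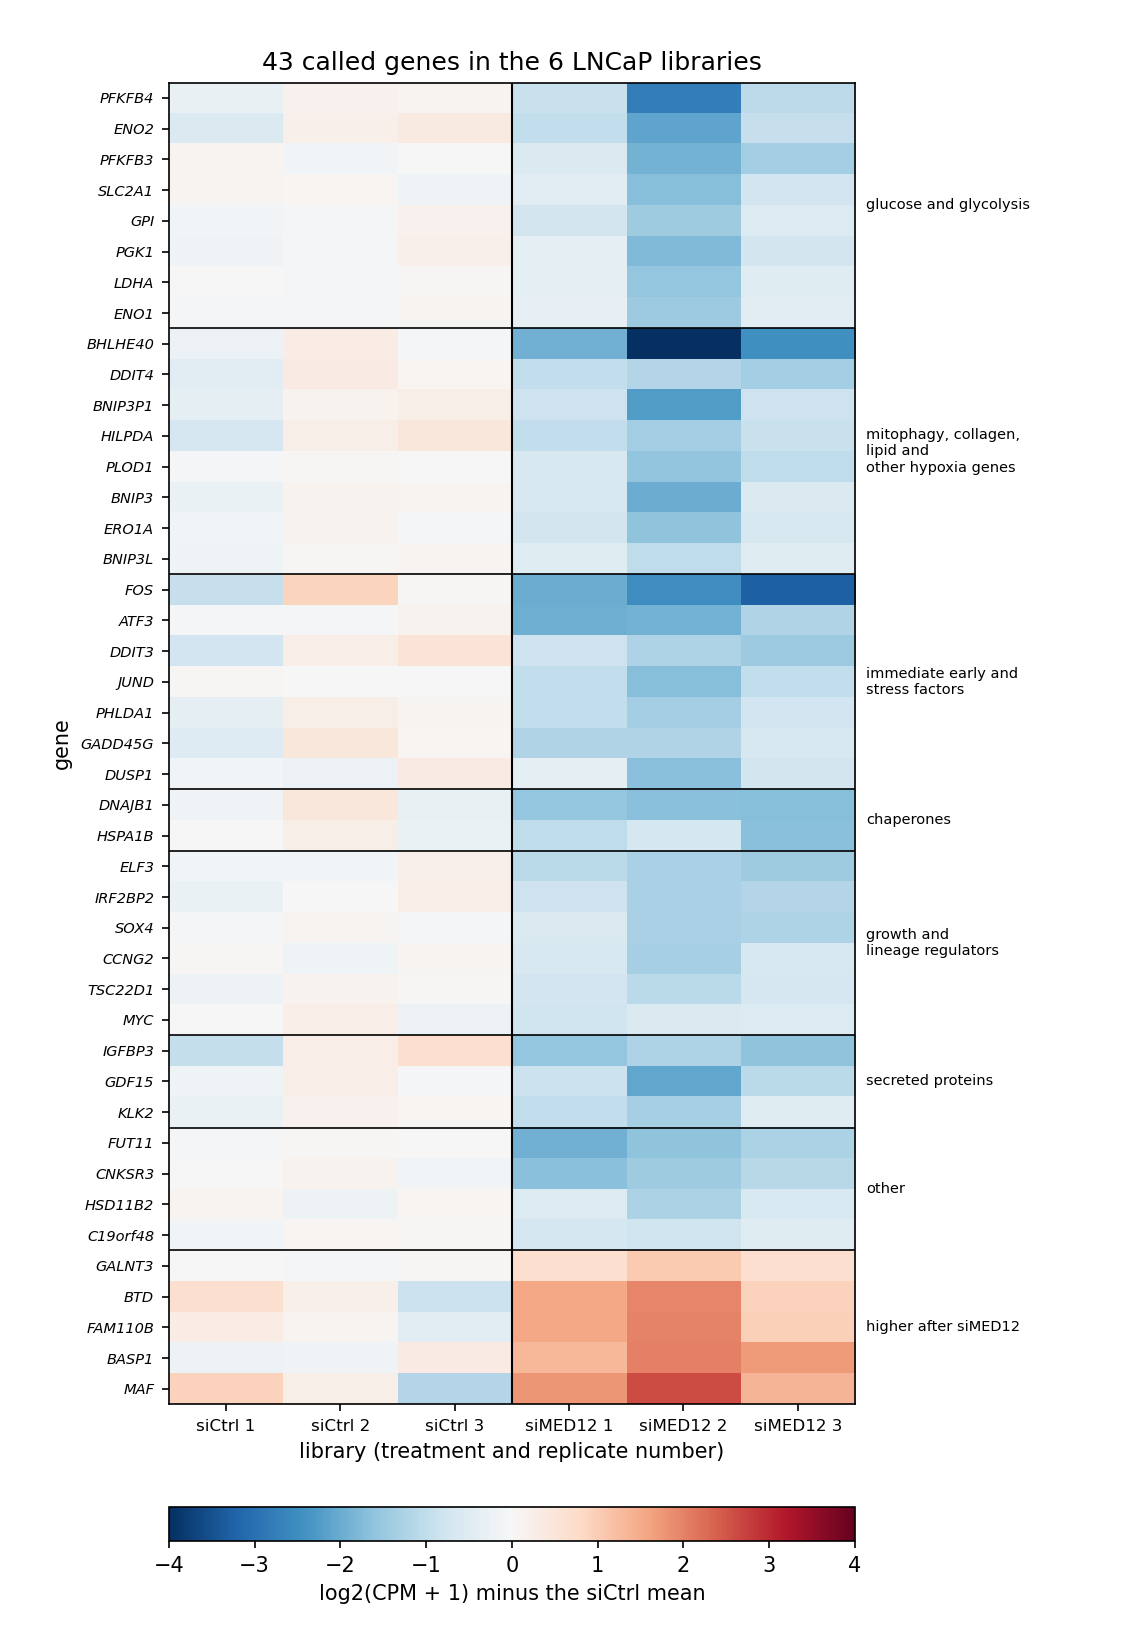
Each row is 1 of 43 of the 44 called genes, grouped by function, and each column is 1 of the 6 LNCaP libraries. Colour gives log2(CPM + 1) minus the siCtrl mean, blue for lower and red for higher; siMED12 replicate 2 has the deepest blue in most glycolysis and hypoxia rows, while DNAJB1 is similar in the 3 siMED12 libraries.

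Glycolysis was the pathway with the most called genes. Of 26 listed genes 24 were tested, 22 had a negative log2 fold change, and 8 passed as lower (0.369% of all tested genes did), with a list median of -0.54. The list's summed level was 25247, 25321 and 28258 CPM in siCtrl and 21942, 12452 and 20981 CPM in siMED12. The groups did not overlap, and siMED12 replicate 2 was far below the rest. Without that library the list median was -0.36 and 2 genes passed, GPI and PFKFB4.

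The steps concerned ran from glucose entry to lactate. SLC2A1, the glucose transporter GLUT1, had 182, 178 and 149.5 CPM in siCtrl and 124, 50.7 and 100 CPM in siMED12, which was -0.88 on the log2 scale (SE 0.19, adjusted p 0.0213 in the edgeR test; the values in brackets that follow are the same quantities). GPI, which interconverts glucose and fructose phosphates, had 1884, 1963 and 2297 CPM in siCtrl and 1228, 767 and 1383 CPM in siMED12 (-0.86, SE 0.15, adjusted p 0.00145). All siMED12 libraries lay below all siCtrl libraries for both genes, and GPI passed in each of the 19 alternative fits. PFKFB3 and PFKFB4 encode enzymes that set the level of fructose 2,6-bisphosphate, an activator of phosphofructokinase. PFKFB3 fell from 87.8, 75.9 and 81.6 to 54.5, 21.4 and 31.0 CPM in replicates 1 to 3 (-1.21, SE 0.28, adjusted p 0.0338). PFKFB4 fell from 109, 149 and 145 to 71.3, 18.7 and 64.4 CPM (-1.39, SE 0.25, adjusted p 0.00307), and it was the glycolysis gene with the lowest fold change. In each, siMED12 replicate 2 was the lowest library. PGK1, which makes ATP in the pathway, had 2321, 2493 and 2956 CPM in siCtrl and 1978, 751 and 1554 CPM in siMED12 (-0.86, SE 0.18, adjusted p 0.0171). LDHA, the lactate dehydrogenase subunit that favours lactate formation, had 3055, 2942 and 3107 CPM in siCtrl and 2302, 1036 and 2168 CPM in siMED12 (-0.72, SE 0.16, adjusted p 0.0235). Both were separated between the groups, and both kept their sign but not their call without siMED12 replicate 2 (-0.55, adjusted p 0.134, and -0.44, adjusted p 0.147). The enolases ENO1 (-0.66, SE 0.15, adjusted p 0.04) and ENO2 (-1.34, SE 0.28, adjusted p 0.0158) were also lower. Without siMED12 replicate 2 ENO1 had -0.38 and ENO2 -1.05, and the edgeR adjusted p was 0.251 for ENO1, 0.262 for ENO2, 0.333 for SLC2A1 and 0.461 for PFKFB3. With the replicate block PFKP, GAPDH and PKM joined them, named here after their values were seen, with block log2 fold changes of -0.63, -0.50 and -0.48.

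Hypoxia-induced genes outside glycolysis showed the lowest list median. Of 34 listed genes 29 were tested, 28 had a negative log2 fold change, and 6 passed as lower (0.369% of all tested genes did), with a median of -0.75. The same share stands beside the lower calls of the lists that follow. The medians in pairs 1 to 3 were -0.32, -1.01 and -0.57, and without siMED12 replicate 2 the median was -0.49 and 1 gene passed, BHLHE40. PLOD1 and the pseudogene BNIP3P1, which are not on the list, were called as well.

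BHLHE40 (ENSG00000134107), a transcriptional repressor that acts on clock genes and is induced by hypoxia, had the lowest fold change of this group. It had 142, 205 and 161 CPM in siCtrl and 43.4, 9.34 and 29.9 CPM in siMED12 (-2.62, SE 0.27, edgeR adjusted p 2.43e-07). Even the highest siMED12 library was far below the lowest siCtrl library, and the gene passed in each of the 18 alternatives that tested it. BNIP3 and BNIP3L encode receptors on the outer mitochondrial membrane that mark mitochondria for autophagy. BNIP3 had 2164, 2863 and 2773 CPM in siCtrl and 1641, 651 and 1735 CPM in siMED12 (-0.95, SE 0.20, adjusted p 0.0151), and BNIP3L had 414, 483 and 499 CPM and 333, 228 and 329 CPM (-0.65, SE 0.15, adjusted p 0.0424). The BNIP3P1 value (-1.19) may hold reads of BNIP3, of which it is a copy. DDIT4, an inhibitor of the growth kinase complex mTORC1, had 319.8, 538 and 443 CPM in siCtrl and 215, 188 and 163 CPM in siMED12 (-1.21, SE 0.24, adjusted p 0.0113). HILPDA, a lipid droplet protein, had 84.5, 159 and 184 CPM and 68.5, 50.7 and 72.4 CPM (-1.19, SE 0.23, adjusted p 0.0113). In HILPDA siCtrl replicate 1 was nearer to the siMED12 libraries than to the other two siCtrl libraries. ERO1A, an oxidase of protein folding in the endoplasmic reticulum, had 84.5, 100.3 and 89.0 CPM in siCtrl and 54.5, 29.4 and 57.5 CPM in siMED12 (-0.94, SE 0.20, adjusted p 0.0158). PLOD1, which hydroxylates lysines of collagen, had 194, 209 and 206 CPM and 129, 66.7 and 98.9 CPM (-1.05, SE 0.17, adjusted p 0.000866) and passed in each of the 19 alternatives. With the replicate block EGLN3 (-1.03), an oxygen-sensing prolyl hydroxylase, PLOD2 (-1.23) and FAM162A (-0.53) passed too, the last named after its value was seen. PLOD2 was at 53.1, 2.67 and 50.6 CPM in siMED12 replicates 1 to 3, and its log2 fold change without the block went from -1.20 to -0.67 when siMED12 replicate 2 was left out. Among the called genes BNIP3 went to -0.62 without that library (edgeR adjusted p 0.0797). The adjusted p was then 0.54 for BNIP3L, 0.0588 for BNIP3P1, 0.0853 for DDIT4, 0.147 for HILPDA and 0.269 for ERO1A, while BHLHE40 and PLOD1 passed.

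Promoter sequences of called genes were read from RefSeq on GRCh38.p14, the 250 bases before each annotated start. Of 43 of the called genes 35 matched the table, with 51 promoters. The core of the hypoxia response element, ACGTG on either strand, was found in 9 of 15 promoters of the lower glycolysis and hypoxia genes (60%). It was found in 4 of 30 promoters of the other lower genes (13.3%). The share was 22.7% of 12121 promoters of tested genes and 18.5% of all 35116 promoters of the table. The 15 promoters belong to 13 genes and the 30 to 18 genes. Among the 30, TSC22D1 has 5 starts, CNKSR3 has 4 and DNAJB1 has 3. Counted by gene, the word was found in 9 of 13 and in 4 of 18 genes, the latter being CCNG2, DUSP1, GADD45G and TSC22D1. No share by gene was taken for the tested genes, so a shortfall in the other lower genes was not tested. The word lies within the E-box CACGTG, which reads the same on both strands and then counts as 2 matches, and which 4 of the 15 promoters (26.7%), 8.67% of those of tested genes and 6.34% of all promoters hold. A match is only a match of letters, and the genes of this group were chosen by their known function. Printed to show where the words lie, with each ACGTG in capitals, are BHLHE40 (chr3:4979187-4979436, plus strand), BNIP3 (chr10:131981924-131982173, minus strand), LDHA at the first of its 2 starts in the table (chr11:18394313-18394562, plus strand) and PGK1 (chrX:78103998-78104247, plus strand). They hold 4, 2, 5 and 2 matches, and the second LDHA start holds none.
BHLHE40: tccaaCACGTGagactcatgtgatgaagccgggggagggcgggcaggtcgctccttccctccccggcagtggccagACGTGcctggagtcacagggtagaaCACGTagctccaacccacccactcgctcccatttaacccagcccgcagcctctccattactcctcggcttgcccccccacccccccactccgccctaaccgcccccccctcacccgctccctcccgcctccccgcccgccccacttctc
BNIP3: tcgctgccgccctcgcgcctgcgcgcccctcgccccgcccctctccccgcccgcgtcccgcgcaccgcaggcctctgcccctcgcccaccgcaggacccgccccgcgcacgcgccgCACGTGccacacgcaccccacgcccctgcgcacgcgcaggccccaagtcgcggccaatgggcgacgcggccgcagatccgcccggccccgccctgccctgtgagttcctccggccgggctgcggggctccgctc
LDHA: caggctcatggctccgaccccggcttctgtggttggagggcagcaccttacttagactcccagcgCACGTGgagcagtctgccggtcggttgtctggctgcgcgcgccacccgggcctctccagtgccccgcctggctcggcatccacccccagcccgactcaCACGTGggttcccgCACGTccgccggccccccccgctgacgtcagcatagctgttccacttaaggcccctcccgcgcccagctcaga
PGK1: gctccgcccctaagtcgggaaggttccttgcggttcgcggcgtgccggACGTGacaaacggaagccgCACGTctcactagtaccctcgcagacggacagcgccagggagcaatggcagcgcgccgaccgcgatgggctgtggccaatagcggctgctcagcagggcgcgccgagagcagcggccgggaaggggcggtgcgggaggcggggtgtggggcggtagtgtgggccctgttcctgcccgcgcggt

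The AP-1 and immediate early factors FOS, JUND and ATF3 were lower as well. Many genes of this class, though not all, are switched on within minutes by growth factor and stress signals, and several encode subunits of the AP-1 transcription factor. Of 31 listed factors 26 were tested, and 24 had a negative log2 fold change (median -0.46). As lower 3 passed (0.369% of all tested genes did), and 5 passed with the replicate block (0.842% did). This list had medians of -0.29, -0.56 and -0.48 in pairs 1 to 3 and a median of -0.46 without siMED12 replicate 2. JUND, an AP-1 subunit, had 1632, 1577 and 1571 CPM in siCtrl and 802, 487 and 797 CPM in siMED12 (-1.20, SE 0.14, edgeR adjusted p 5.43e-06). ATF3, a stress-induced factor related to AP-1, had 54.7, 54.4 and 63.6 CPM in siCtrl and 14.0, 14.7 and 24.1 CPM in siMED12 (-1.69, SE 0.27, adjusted p 0.000869). The siCtrl libraries were close to each other for both genes, and both passed in each of the 19 alternatives. FOS had 9.94, 37.2 and 20.1 CPM in siCtrl and 4.20, 2.67 and 1.15 CPM in siMED12 (-3.06, SE 0.65, adjusted p 0.0158), the lowest fold change of the 44, on 3, 2 and 1 counts in the siMED12 libraries. Its adjusted p was 0.145 without siMED12 replicate 2. JUNB did not pass (-0.44, adjusted p 0.728). KLF4 (-1.05) and ZFP36L1 (-0.84), which destabilizes AU-rich messenger RNAs, passed with the replicate block only.

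Feedback genes of the MAPK pathway, which are induced by it and dampen it, had a median of -0.60. Of 16 tested genes 13 were negative and 2 were called as lower (0.369% of all tested genes were). The pair medians were -0.26, -0.98 and -0.40, and without siMED12 replicate 2 the median was -0.42 and edgeR called 0 genes of the list. DUSP1, a phosphatase of MAP kinases, had 181, 165 and 245 CPM in siCtrl and 148, 60.0 and 116 CPM in siMED12 (-0.88, SE 0.21, edgeR adjusted p 0.0435). PHLDA1 had 66.3, 100.3 and 91.2 CPM and 42.0, 32.0 and 49.4 CPM (-1.06, SE 0.22, adjusted p 0.0158). Replicate 2 was the lowest siMED12 library for both, and without it DUSP1 had -0.60 (adjusted p 0.55) and PHLDA1 -0.91 (adjusted p 0.204). SPRY1 (-0.73) and DUSP4 (-1.38) passed with the block only, DUSP4 being named after its value was seen. The stress factor GADD45G, which binds MAP kinase kinase kinases, had 79.5, 158 and 119.8 CPM in siCtrl and 49.0, 49.4 and 72.4 CPM in siMED12 (-1.06, SE 0.22, adjusted p 0.0171, and 0.186 without siMED12 replicate 2).

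Among stress pathways the chaperone genes DNAJB1 and HSPA1B were lower, and no other chaperone on the list was called without the block. DNAJB1, the cochaperone that presents clients to HSP70, had 288, 437 and 258 CPM in siCtrl and 109, 98.8 and 96.6 CPM in siMED12 (-1.69, SE 0.17, edgeR adjusted p 2.43e-07). The siMED12 libraries were close together, and the call held in each of the 19 alternatives. HSPA1B, an inducible HSP70, had 182, 212 and 149.5 CPM in siCtrl and 88.1, 109 and 55.2 CPM in siMED12 (-1.11, SE 0.20, adjusted p 0.00293). It is nearly identical to HSPA1A, and reads could be split between them. The list of 39 tested heat shock proteins and cytosolic chaperones had a median of -0.061, with 27 negative, and AHSA1, an activator of HSP90, had 0.51 (adjusted p 0.291). Folding and stress genes of the endoplasmic reticulum had a median of 0.047 over 26 genes and no call, in either fit. The ATF4 and amino acid stress list had a median of -0.24, 20 of 24 tested genes negative and 1 lower call, DDIT3 (0.369% of all tested genes were called lower). DDIT3, the stress factor CHOP, had 46.4, 96.0 and 113 CPM in siCtrl and 44.8, 33.4 and 28.7 CPM in siMED12 (-1.32, SE 0.29, adjusted p 0.0259), with siCtrl replicate 1 at almost the level of siMED12 replicate 1. Its adjusted p was 0.186 without siMED12 replicate 2, while DNAJB1 and HSPA1B passed without that library.

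The 2 heat shock genes and JUND are shown at starts chosen because they hold the words that their families of factors bind. The heat shock word GAANNTTC, 2 adjoining units of the element bound by HSF1, was found in 3 of 45 promoters of the lower genes (6.67%), in 4.1% of promoters of tested genes and in 5.78% of all promoters of the table. The ATF and CREB word TGACGTCA was found in 3 of 45 (6.67%), in 2.67% of those of tested genes and in 1.65% of all. The AP-1 word TGANTCA was found in 4 of 45 (8.89%), in 4.2% of those of tested genes and in 6.57% of all. The 45 promoters belong to 31 genes. The 4 with the AP-1 word include both starts of DDIT3, whose promoters overlap almost entirely, beside ENO2 and TSC22D1. Each of these words reads the same on both strands. In capitals are GAANNTTC in DNAJB1 at the second of its 3 starts in the table (chr19:14518398-14518647, minus strand) with 2 matches, in HSPA1B (chr6:31827488-31827737, plus strand) with 1 match, and TGACGTCA in JUND (chr19:18281623-18281872, minus strand). The other starts of DNAJB1 hold no GAANNTTC. TGACGTCA is absent from FOS and from both starts of ATF3, and DUSP1 holds 1 match.
DNAJB1: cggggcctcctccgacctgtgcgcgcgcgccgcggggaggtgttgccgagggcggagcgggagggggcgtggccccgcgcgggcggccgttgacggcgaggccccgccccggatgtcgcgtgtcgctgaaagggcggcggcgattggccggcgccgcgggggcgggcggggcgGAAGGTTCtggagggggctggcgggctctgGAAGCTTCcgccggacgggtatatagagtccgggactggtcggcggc
HSPA1B: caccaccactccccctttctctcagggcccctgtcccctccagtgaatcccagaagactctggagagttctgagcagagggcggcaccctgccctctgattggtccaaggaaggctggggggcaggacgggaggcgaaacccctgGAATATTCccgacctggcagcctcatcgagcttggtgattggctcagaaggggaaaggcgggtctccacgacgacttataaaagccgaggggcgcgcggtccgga
JUND: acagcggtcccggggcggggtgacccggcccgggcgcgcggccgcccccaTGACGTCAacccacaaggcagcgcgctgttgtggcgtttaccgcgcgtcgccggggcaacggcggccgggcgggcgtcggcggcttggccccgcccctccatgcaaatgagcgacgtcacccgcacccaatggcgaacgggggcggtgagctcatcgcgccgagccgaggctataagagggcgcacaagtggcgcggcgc

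Regulators of growth and of epithelial lineage formed a further group of lower genes. ELF3, an ETS factor of epithelial cells, had 148, 146 and 183 CPM in siCtrl and 74.1, 64.0 and 58.6 CPM in siMED12 (-1.29, SE 0.19, edgeR adjusted p 0.000223). IRF2BP2, a transcriptional corepressor, had 282, 337 and 407 CPM in siCtrl and 192, 136 and 151 CPM in siMED12 (-1.11, SE 0.15, adjusted p 8.07e-05). The groups were well apart for both, and both passed in each of the 19 alternatives. SOX4, a factor of progenitor and cancer cells, had 305, 341 and 308 CPM in siCtrl and 214, 129 and 133 CPM in siMED12 (-1.01, SE 0.21, adjusted p 0.0133). TSC22D1 (-0.83, SE 0.15, adjusted p 0.00293), which TGF-beta induces, and CCNG2 (-0.84, SE 0.17, adjusted p 0.0117), a cyclin linked to cell cycle arrest, were also lower. Without siMED12 replicate 2 the adjusted p was 0.165 for SOX4, 0.0681 for TSC22D1 and 0.186 for CCNG2. The ETS list otherwise had no call, with 7 of 16 tested genes negative, and EHF had -0.32 (adjusted p 0.65).

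MYC encodes the growth-promoting factor c-Myc. It had 706, 869 and 604 CPM in siCtrl and 413, 479 and 489 CPM in siMED12, without overlap (-0.65, SE 0.14, edgeR adjusted p 0.0151, and 0.0718 without siMED12 replicate 2). Few genes of the growth machinery that c-Myc is known to drive were called. None of 48 tested ribosome biogenesis genes was called in either fit, and their median was -0.020 with 25 negative. Cytosolic ribosomal protein genes had a median of -0.15, with 73 of 77 negative and none called in either fit. Every siMED12 library lay below every siCtrl library in 22 of the 77, and above in 0. Of all tested genes 6.75% lay below and 5.89% above. The summed level of the ribosomal protein genes was 106289, 119487 and 111287 CPM in siCtrl and 99840, 103656 and 107038 CPM in siMED12, which overlapped. Translation factors had a median of -0.13 with 28 of 34 negative, 8 entirely below siCtrl and 1 entirely above. EIF1 was the only one called with the block, named after its value was seen (-0.33). The MYC antagonist MXI1 had -0.47 (adjusted p 0.543).

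Among secreted and androgen-regulated proteins GDF15, IGFBP3 and KLK2 were lower. GDF15, a stress-induced hormone of the TGF-beta family, had 7361, 10010.0 and 7914 CPM in siCtrl and 4629, 1994 and 3966 CPM in siMED12 (-1.26, SE 0.28, edgeR adjusted p 0.0258). It was the only call among 23 tested p53 targets, whose median was -0.013. IGFBP3, which binds insulin-like growth factors in the extracellular space, had 63.0, 150.4 and 199 CPM in siCtrl and 42.0, 52.0 and 40.2 CPM in siMED12 (-1.67, SE 0.27, adjusted p 0.000869). The siCtrl libraries were widely spread for IGFBP3, and the siMED12 libraries were close together. KLK2, a prostate kallikrein protease, had 1634, 2208 and 2056 CPM in siCtrl and 992, 771 and 1406 CPM in siMED12 (-0.89, SE 0.18, adjusted p 0.0113). No other androgen-regulated gene on the list passed without the block. The list of 25 tested genes had a median of 0.017 with 12 negative, and TMPRSS2 (-0.097) and FKBP5 (-0.0099) overlapped between the groups. Its summed level did not overlap, with 9936, 10304 and 9804 CPM in siCtrl and 9256, 7352 and 8265 CPM in siMED12. On the list 5 genes lay entirely below siCtrl and 0 entirely above, beside 6.75% and 5.89% of all tested genes. KLK3, the gene of prostate-specific antigen, had 2397, 2561 and 2462 CPM in siCtrl and 2154, 1540.0 and 1794 CPM in siMED12 and passed with the replicate block (-0.45, adjusted p 0.011) but not without it (adjusted p 0.418). ODC1, the entry enzyme of polyamine synthesis, did likewise (-0.61, adjusted p 0.00121, and adjusted p 0.0688 without the block), with 1773, 2029 and 1964 CPM and 1646, 897 and 1327 CPM. HSD11B2, which inactivates cortisol, had 176, 142 and 172 CPM in siCtrl and 110.5, 66.7 and 106 CPM in siMED12 (-0.79, SE 0.17, adjusted p 0.0192). The remaining lower genes were FUT11 (-1.63, adjusted p 0.0113), a fucosyltransferase, CNKSR3 (-1.42, adjusted p 0.0213), a scaffold protein, and C19orf48 (-0.66, adjusted p 0.0142). IGFBP3 passed without siMED12 replicate 2, and the adjusted p was 0.368 for GDF15, 0.147 for KLK2, 0.333 for HSD11B2, 0.0853 for FUT11, 0.147 for CNKSR3 and 0.147 for C19orf48.

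The 5 genes that rose have no shared pathway on the lists. BASP1, a membrane-bound protein that is also a transcriptional corepressor, had 31.5, 32.9 and 45.6 CPM in siCtrl and 92.3, 149.5 and 121 CPM in siMED12 (1.68, SE 0.23, edgeR adjusted p 7.80e-05), and passed in each of the 19 alternatives. MAF, a leucine zipper transcription factor, had 16.6, 10.0 and 3.18 CPM in siCtrl and 30.8, 56.0 and 23.0 CPM in siMED12 (1.99, SE 0.45, adjusted p 0.0235), on 3 to 10 counts in siCtrl. The MAF level varied widely over the siCtrl libraries, but the groups did not overlap. FAM110B had 18.2, 15.8 and 10.6 CPM and 44.8, 60.0 and 28.7 CPM (1.61, SE 0.30, adjusted p 0.00587), and BTD, the biotinidase that recycles the vitamin biotin, had 19.9, 14.3 and 6.36 CPM and 37.8, 50.7 and 24.1 CPM (1.55, SE 0.36, adjusted p 0.04). MAF, FAM110B and BTD were each lowest in siCtrl replicate 3 and highest in siMED12 replicate 2. GALNT3, which starts mucin-type O-glycans, had 66.3, 63.0 and 67.8 CPM in siCtrl and 106, 136 and 105 CPM in siMED12 (0.81, SE 0.17, adjusted p 0.0191), with siCtrl libraries close to each other. Its family member GALNT2 had 0.62 and an adjusted p of 0.233, or 0.0522 with the replicate block. Without siMED12 replicate 2 the adjusted p was 0.00189 for BASP1, 0.135 for FAM110B, 0.262 for GALNT3, 0.498 for BTD and 0.505 for MAF.

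The replicate block added 73 genes, 50 lower and 23 higher. Among the 73, 52 did not overlap between the groups, beside 12.6% of all tested genes, and the test itself favours separated genes. Several of the lower ones belong to the functions described above. BAMBI, a decoy receptor of TGF-beta and BMP signals, had 131, 145 and 146 CPM in siCtrl and 69.9, 54.7 and 70.1 CPM in siMED12 (-1.11, block adjusted p 2.31e-05, and 0.174 without the block). NDUFA4L2, a hypoxia-induced mitochondrial protein, had 89.5, 93.1 and 70.0 CPM and 65.7, 1.33 and 32.2 CPM (-1.41, block adjusted p 0.0105), with siMED12 replicate 2 far below the rest. Its log2 fold change without the block was -1.34, and -0.79 without that library. Metabolic genes among them were ME1 (-0.88), which makes NADPH from malate, INSIG1 (-0.68) and SCD (-0.60) of sterol and fatty acid control, AMD1 (-0.45) of polyamine synthesis, SHMT2 (-0.53) of mitochondrial one-carbon metabolism, FTH1 (-0.49), the heavy chain of ferritin, and UGT2B15 (-0.81), which conjugates androgens. HSPB1 (-0.42), a small heat shock protein, CIART (-1.02), a clock repressor, and RIMKLA (-1.05) passed as well. INSIG1, SCD, UGT2B15, SPRY1, KLF4, HSPB1 and AMD1 overlapped between the groups and separated only within pairs.

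Higher genes added by the block included QSOX1 (1.17, block adjusted p 0.0403), a sulfhydryl oxidase that is secreted, and LYN (1.00, 0.0143), a SRC family kinase. LYN had 23.2, 32.9 and 27.6 CPM in siCtrl and 54.5, 50.7 and 62.1 CPM in siMED12 without overlap. HACL1 (0.87), of peroxisomal fatty acid breakdown, FSTL1 (0.69), RAMP1 (0.69), a receptor-modifying protein, DDB1 (0.66), of DNA damage binding, SELENBP1 (0.62) and CD276 (0.58), an immune checkpoint protein, were the others of the highest. QSOX1, FSTL1, RAMP1 and CD276 overlapped between the groups, and QSOX1 went from 1.18 without the block to 0.68 (adjusted p 0.986) without siMED12 replicate 2. In PPIAP46, ISYNA1 and TRIM49D1 the replicate 1 libraries stood apart from the rest. PPIAP46 had 49.7, 1.43 and 1.06 CPM in siCtrl and 306, 0 and 0 CPM in siMED12, and its log2 fold change of 2.73 (2.48 with the block) turned to -6.47 without siMED12 replicate 1. ISYNA1 had 33.1, 15.8 and 3.18 CPM and 115, 24.0 and 6.90 CPM, and TRIM49D1 had 156, 32.9 and 36.0 CPM and 54.5, 10.7 and 24.1 CPM. In ENSG00000213939 siCtrl replicate 1 stood apart, with 101, 15.8 and 14.8 CPM in siCtrl and 9.79, 10.7 and 1.15 CPM in siMED12.

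Few energy and proliferation genes outside glycolysis passed the test. Nuclear-encoded genes of oxidative phosphorylation had a median of -0.021 over 75 tested genes, with 45 negative and none called in either fit. Mitochondrially encoded genes had a median of 0.27, all 11 positive and none called without the block, with pair medians of 0.029, 0.53 and 0.35. With the block MT-CO1 (0.48, adjusted p 0.0306) and MT-ND3 (0.43, adjusted p 0.0495) passed. MT-CO1 overlapped between the groups, and its log2 fold change without the block went from 0.55 to 0.16 without siMED12 replicate 2 (edgeR adjusted p 0.986). MT-ND3 went from 0.44 to 0.36 and the list median to 0.16. The pair with the largest mitochondrial difference was also the pair with the lowest glycolysis median, and the part of either in the other was not tested. S phase genes had a median of 0.024 over 45 tested genes and G2/M genes -0.017 over 49, with none called in either fit, and their pair medians ran from -0.19 to 0.11 and from -0.24 to 0.14. Sterol and fatty acid genes had a median of -0.15 with 20 of 31 negative, and the antioxidant list -0.14 with 13 of 19 negative. Clock genes had a median of -0.47 with 10 of 13 negative, BHLHE40 being the only call without the block and CIART joining it with the block. The IGF axis list had a median of -0.51 with 8 of 11 negative and IGFBP3 as its call, but its median was 0.048 in pair 2. Interferon, NF-kB and autophagy genes had medians of -0.047, 0.073 and 0.032 with no call in either fit.

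**Figure D3:**
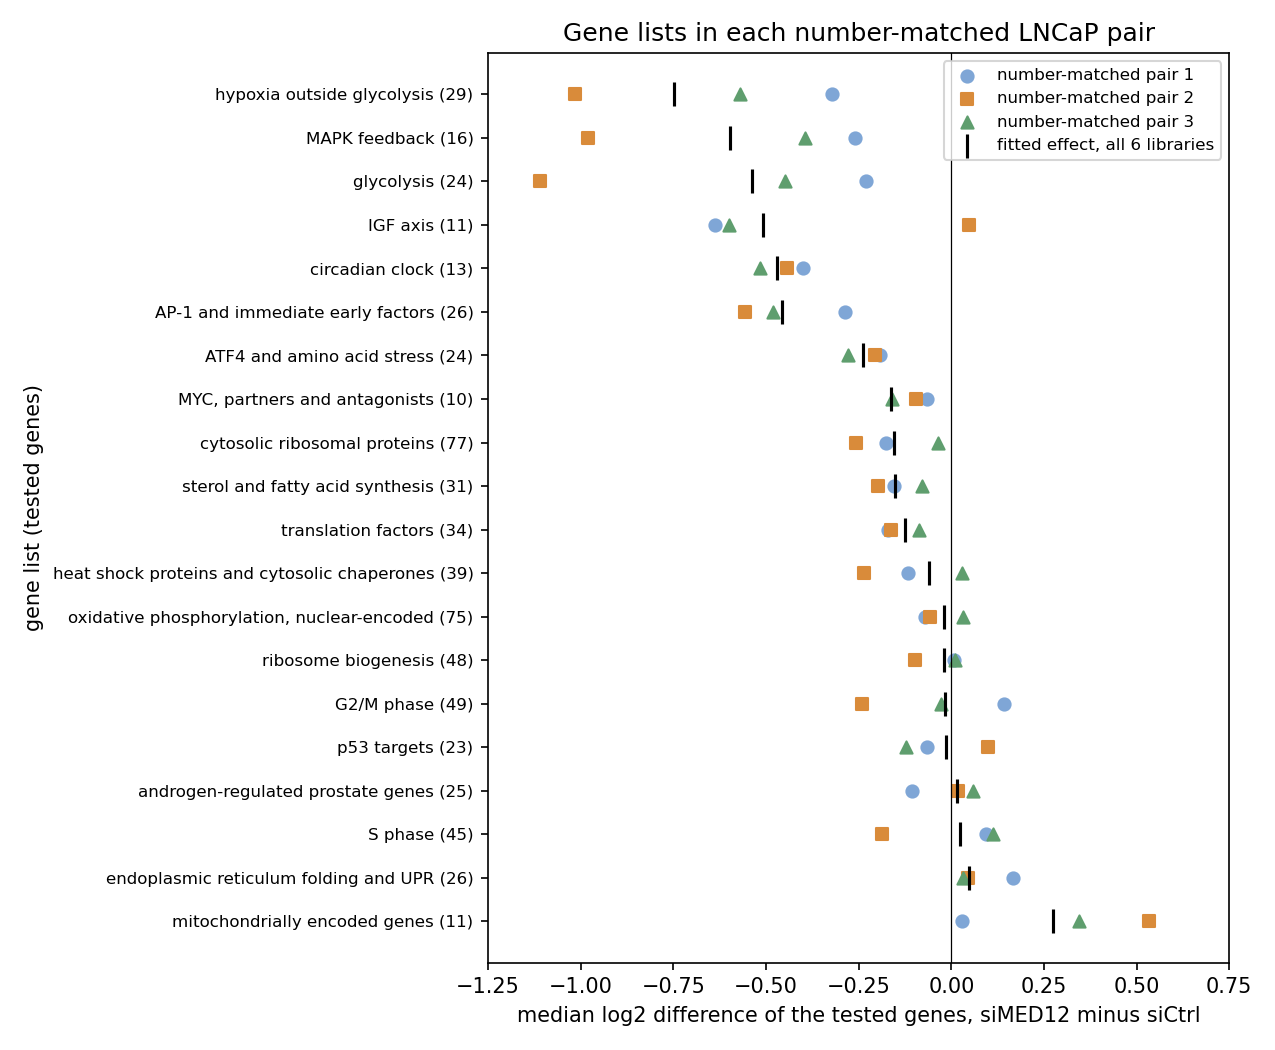
Each row is a gene list with its number of tested genes, and the horizontal axis is the median log2 difference between siMED12 and siCtrl. Circles, squares and triangles are number-matched pairs 1, 2 and 3 and black bars the fitted effect; hypoxia, MAPK feedback and glycolysis lie lowest with pair 2 at their left end, clock and AP-1 genes have the 3 pairs close together, and the cell cycle lists straddle 0.

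The lower called genes also differed from the tested genes in features that did not choose them directly. They spanned a median of 9.63 kb in the genome with 5 exons in the annotation, beside 29.1 kb and 9 exons for all tested genes and 15.5 kb for the 1761 tested genes with a siCtrl mean of at least 100 CPM. Their median siCtrl level was 203 CPM, beside 27.5 CPM for all tested genes and 14.9 CPM for the 5 higher genes. A gene with more counts passes the test at a smaller change, and the part of this in the levels was not tested.

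The effect of siMED12 in LNCaP was set against that in 22Rv1 and PC3 spheroids to find where it differed. Of the 44 genes 8 were also called in 22Rv1, where 1.84% of tested genes were, and none in PC3, where edgeR called 0 genes. In the test of the difference between lines 20 genes passed for 22Rv1 (0.189% of all tested) and 3 for PC3 (0.0284%), with 875 and 530 at an unadjusted p under 0.05. Under the block there were 71 (0.672%) and 13 (0.123%). Of the 44 genes 3 differed from 22Rv1 and 3 from PC3, or 7 and 7 with the block. DNAJB1 differed from both, with -0.22 in 22Rv1 (difference -1.46, edgeR adjusted p 0.0192) and -0.071 in PC3 (difference -1.61, adjusted p 0.0011), beside -1.69 in LNCaP. ERO1A had 0.40 in 22Rv1 (difference -1.34, adjusted p 0.0471) and FAM110B had -0.15 (difference 1.76, adjusted p 0.0435). BHLHE40 had -0.19 in PC3 (difference -2.43, adjusted p 0.0425) and IGFBP3 had 0.36 (difference -2.03, adjusted p 0.0392). Without the block no further gene of the 44 passed the test of the difference from either line. JUND had -0.58 in 22Rv1 and -0.11 in PC3, with adjusted p-values of the difference of 0.387 and 0.128 without the block. The 39 lower genes had medians of -0.44 in 22Rv1 and -0.11 in PC3.

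**Figure D4:**
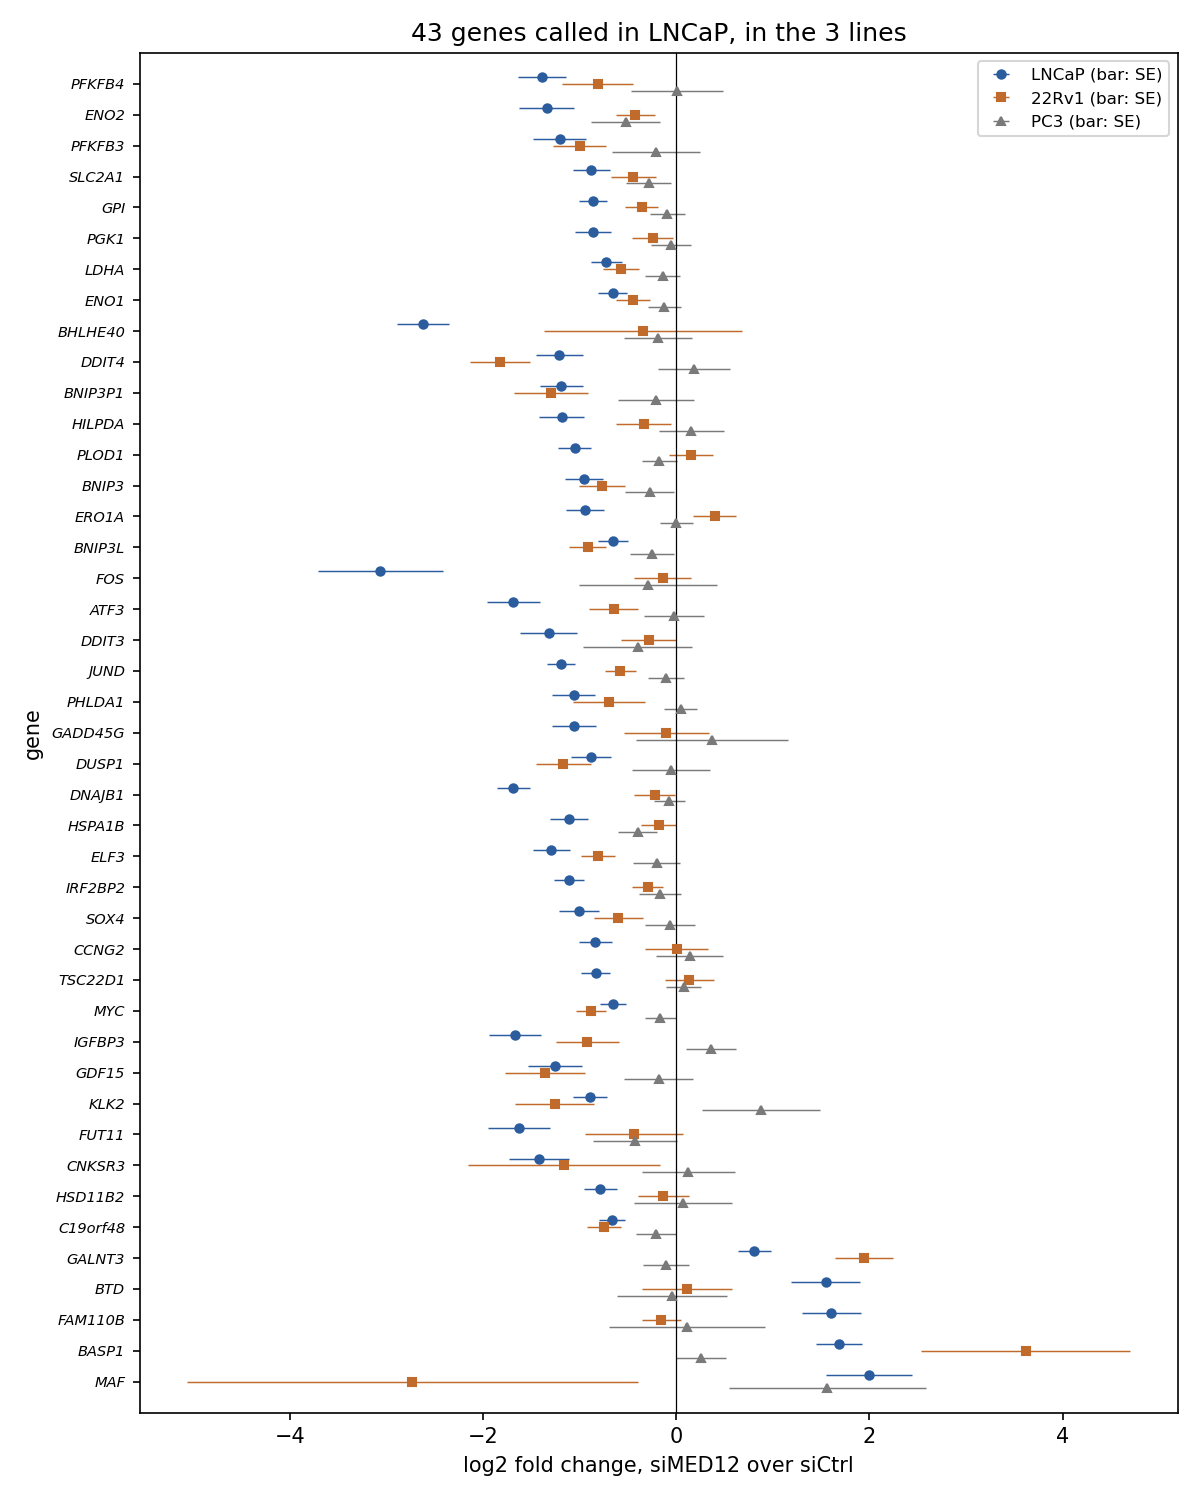
The log2 fold change between siMED12 and siCtrl (horizontal axis) is shown for 43 of the 44 genes called in LNCaP, with LNCaP in blue, 22Rv1 in orange and PC3 in grey, and bars for the SE. DNAJB1 lies near 0 in 22Rv1 and PC3, DDIT4, MYC and BNIP3L have lower values in 22Rv1 than in LNCaP, and many PC3 points lie close to 0.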

How the data were processed

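Spheroids of LNCaP, 22Rv1 and PC3 cells were profiled in 16 libraries, 6 of them from LNCaP, by 3′ tag sequencing. The authors aligned and counted reads per gene with STARsolo on GRCh38.p13 with Gencode release 43, and the deposited count table holds raw counts of 62703 genes. Whether molecular identifiers were collapsed is not given in the sources used here. The authors also deposited log2 CPM values of 10566 genes, which were recomputed from the counts to within 1e-13 and used only for limma. Groups and replicate numbers came from the labels.

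The 2-sided quasi-likelihood test (edgeR 4.0.16 in R 4.3.3, not its legacy method) was applied to the counts, with a minimum count of 10 and total of 15, TMM scaling, 1 mean for each of the 6 groups, and Benjamini-Hochberg adjustment over 10566 genes at 0.05. The SE was obtained by dividing a log2 fold change by the root of its F statistic. Differences between lines were contrasts of the same fit. The second fit added the replicate number of each line as a block. Same-numbered LNCaP libraries had correlations of 0.21, 0.14 and 0.16 of their deviations from group means over 6375 genes with at least 20 CPM, and differently numbered ones -0.14 to -0.0044, so that the numbers were taken to pair the libraries. The pairing comes from these data, since the labels give only the numbers. Pair differences are of log2(CPM + 1). Replicates within a group had a chi-square of 1.60 to 3.04 per gene, and none was a copy of another.

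The 3-count floor of a library is 3.02 to 4.72 CPM and covers counting error only. Alternatives were the block, relative log expression scaling, robust and legacy edgeR, other filters, DESeq2 1.42.0, limma 3.58.1, the LNCaP libraries alone, and each LNCaP library or pair left out. The legacy fit and the block without 1 pair were added after seeing the data. The code was tested on simulated counts. The comparison, gene lists, functions and alternatives were chosen with earlier results of these data known. Genes named were the called genes, MED12, the kinase module and KLK2, KLK3, FKBP5 and TMPRSS2, of block-only genes the 10 highest and 10 lowest with at least 20 CPM, up to 4 members of a list with at least 50 CPM, and up to 5 genes of each sign between lines, and some items are not reported here. Coordinates and promoters are those of RefSeq on GRCh38.p14, and spans and exons those of Gencode release 44.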

Additional observations from a re-analysis of the deposited data

Results flagged for a closer look

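The following genes had a siMED12 effect in LNCaP that differed from the effect in another line in edgeR's test of the difference, with an adjusted p under 0.05. Against 22Rv1 the log2 difference (LNCaP effect minus 22Rv1 effect) was -1.46 for DNAJB1, -1.34 for ERO1A and 1.76 for FAM110B, which were called in LNCaP and not in 22Rv1. It was -2.26 for PYGL, the liver-type glycogen phosphorylase, -1.67 for PLAAT3, -1.0 for C12orf75 and -1.11 for TSPAN3, a tetraspanin. These 4 genes rose in 22Rv1 (2.20, 1.08, 1.00 and 1.08) and were not called in LNCaP (-0.056, -0.59, 0.0051 and -0.034). It was 1.46 for PMEPA1, which restrains TGF-beta signals, 1.10 for TMBIM1, 1.43 for ALDH3A2, a fatty aldehyde dehydrogenase, and 1.41 for MT-CO1. Those 4 fell in 22Rv1 (-1.18, -1.02, -1.06 and -0.86) and had 0.28, 0.079, 0.38 and 0.55 in LNCaP without a call. The LNCaP value of MT-CO1 was 0.16 without siMED12 replicate 2. Of the 20 genes past this threshold 16 were called in 22Rv1 and not in LNCaP.

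Against PC3 the difference was -1.61 for DNAJB1, -2.03 for IGFBP3 and -2.43 for BHLHE40. Both other lines had 2 siMED12 libraries, replicates 1 and 3, so that siMED12 replicate 2, the library with the lowest levels of many LNCaP genes, has no counterpart there. Without it 9 genes differed from 22Rv1 and 1 from PC3.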

How the results depend on the processing

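Libraries of the same number were paired by the replicate block, which raised the count of called genes from 44 to 117, that of differences from 22Rv1 from 20 to 71 and that from PC3 from 3 to 13; the calls it changed for named genes stand beside them, and it removed none of the 44. With the LNCaP libraries alone and the block 196 genes passed, with the spread estimated from the 3 LNCaP pairs only. The LNCaP count was 29 with the robust edgeR fit, with DESeq2 and with limma, and 95 with all genes that had at least 1 count. Leaving out 1 library gave 12 to 55 genes, and leaving out 1 pair with the block gave 97, 31 and 65 without numbers 1, 2 and 3. The count of differences from 22Rv1 was 68 with all genes and 13 with limma, and 1 to 17 without 1 library and 27 to 41 without 1 pair. Differences from PC3 numbered 1 with the robust fit, 15 with all genes, 1 with the filter of at least 10 counts in every library, 1 to 3 without 1 library and 18, 5 and 7 without pairs 1, 2 and 3. Of the 44 genes 8 passed in each of the 19 alternatives (ATF3, BASP1, DNAJB1, ELF3, GPI, IRF2BP2, JUND and PLOD1). BHLHE40 passed in all that tested it. The 44 were called in part without siMED12 replicate 2 (12 of 44), siCtrl replicate 2 (13), siCtrl replicate 3 (12) and siCtrl replicate 1 (31), and 28, 26 and 25 of them with the robust fit, DESeq2 and limma. The direction of genes near 0 changed. CCNC was 0.0014 and FKBP5 0.0015 with the filter of at least 10 counts, and MED13L was -0.19 with limma. Over the fits without 1 library CCNC ran from -0.24 to 0.11, FKBP5 from -0.18 to 0.33, TMPRSS2 from -0.22 to 0.18, CDK8 from -0.12 to 0.29, MED13L from -1.11 to 0.61, ISYNA1 from -0.032 to 2.43 and PPIAP46 from -6.47 to 6.16. With the block and 1 pair left out CCNC was 0.17 and 0.097 without numbers 1 and 2, FKBP5 0.15 and 0.044, TMPRSS2 0.10 and MED13L -1.09 without number 2, and CDK8 -0.084 without number 3. Depth limits the weak genes. The causes of these changes were not tested.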

Other observations

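Further lists gave few calls. TGF-beta, SMAD and BMP genes had a median log2 fold change of -0.0032 over 21 tested genes, and BAMBI was the only member that passed, with the block. SP and KLF factors had -0.068 over 15 tested genes, with KLF4 passing in the same way. Aminoacyl-tRNA synthetases had -0.084 over 20 tested genes with none called in either fit. The steroid-metabolizing enzymes had -0.040 over 9 tested genes, with UGT2B15 passing with the block. Zinc handling genes, the metallothioneins and their exporter, had -0.65 over 4 tested genes, with all 4 negative and none called in either fit. Their summed level was 152 to 182 CPM in siCtrl and 105 to 156 CPM in siMED12, which overlapped.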
